A study of Drosophila melanogaster with 2 samples.

Results

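Cohesin is the protein ring that holds sister chromatids together from replication until they part in mitosis. Its genes and those of its regulators were examined here as targets of Dp, the partner with which E2F transcription factors bind DNA. The set held 8 genes, vtd, SMC1, SA, Nipped-B, dmt, wapl, pds5 and eco, taken by name from the Ensembl annotation of dm6, out of 13945 protein-coding genes in all. All 8 were matched, with SA listed as SA1 and identified by its synonym stromalin. It is not the gene sa, a different locus on arm 3L.

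The data came from ChIP-seq of whole Drosophila melanogaster embryos of both sexes aged 0 to 24 hours, from the transgenic strain Dp-GFP, in which a green fluorescent protein is joined to the carboxyl end of Dp. There was a single group of 2 biological replicates, numbered 1 and 3 in the labels, both carrying the transgene, with no other condition, so no test over samples was possible and values are given as descriptions. Whole embryos mix all tissues, and binding in a few cells cannot be told apart from weak binding in many. The labels also call the libraries input controls although they name Dp as the antibody target, which was not resolved.

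Each relaxed list held 30000 peaks, 1 list for each replicate and 1 for both pooled, and the thresholded list, kept by the authors for reproducibility, held 5828. Read depth is unknown. The signal value of a peak is the authors' own, on a scale that is not stated, so it serves here only for ranking and description inside a list. A gene counts as bound if at least 1 of its annotated starts had a thresholded summit at most 500 bp away.

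In the ring, SMC1 and its partner SMC3 are long coiled-coil ATPases, the kleisin subunit closes the ring, and the stromalin subunit sits on the kleisin. A loader opens the ring onto DNA, an acetyltransferase locks it during replication, protector proteins keep it in place, and Wapl releases it. E2F and Dp dimers are known regulators of genes used in S phase and mitosis, which is when cohesion is made and lost.

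The DNA at or beside the strongest summits of members is shown first, because the members differed in the motifs found there. Each line runs 5′ to 3′ on the strand of the gene and stops at the start or at a neighbouring untranslated region, within 100 bp of the summit. The line of eco does not reach its summit at 7339425, which lay in the 5′ untranslated region of lark. For vtd, which had no summit, and for the downstream start of wapl, the 100 bases before the start are shown. Capitals mark matches to the E2F core, to the CHR element, to the DRE or to core promoter motif 1. The E2F core was searched as TTCCCGC or TTCGCGC or TTGCCGC or TTGGCGC, the CHR as TTTGAA or TTCGAA and the DRE as TATCGATA, all on both strands. Overlaps between different motifs were allowed. Coordinates are dm6. No sequence is shown here for pds5 and Nipped-B.
wapl, chrX:2159012-2159144, minus strand: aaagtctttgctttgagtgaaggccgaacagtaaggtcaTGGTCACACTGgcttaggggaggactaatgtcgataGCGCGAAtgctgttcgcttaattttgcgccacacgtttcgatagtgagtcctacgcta
wapl downstream start, chrX:2155903-2156002, minus strand: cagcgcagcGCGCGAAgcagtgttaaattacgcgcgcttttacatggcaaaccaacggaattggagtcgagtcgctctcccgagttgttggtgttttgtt
SMC1, chr3R:24058164-24058286, plus strand: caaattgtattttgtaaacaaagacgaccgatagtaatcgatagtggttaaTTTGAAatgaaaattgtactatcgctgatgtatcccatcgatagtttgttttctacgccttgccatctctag
dmt, chr3R:9711038-9711141, plus strand: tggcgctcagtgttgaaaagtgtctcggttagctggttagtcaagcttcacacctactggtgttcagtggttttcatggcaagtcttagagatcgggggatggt
SA, chr2L:6950295-6950420, plus strand: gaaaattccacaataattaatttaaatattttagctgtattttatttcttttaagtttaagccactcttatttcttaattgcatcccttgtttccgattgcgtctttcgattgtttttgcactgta
eco, chr3L:7339341-7339412, minus strand: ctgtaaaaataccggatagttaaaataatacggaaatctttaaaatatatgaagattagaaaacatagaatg
vtd before its start, chr3L:27136425-27136524, plus strand: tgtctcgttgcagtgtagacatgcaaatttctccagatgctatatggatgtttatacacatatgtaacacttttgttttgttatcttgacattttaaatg

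Of the 8 genes, 6 were bound, namely SMC1, SA, dmt, wapl, pds5 and eco, beside a background of 42.2% bound among all protein-coding genes. The other two, vtd and Nipped-B, had no peak in any of the 4 lists from 5 kb upstream to 5 kb downstream of the gene. In the pooled relaxed list the members at a start were again 6, against 60.3% of all protein-coding genes, so going down to the weakest listed peaks added none. The median signal of the 6 bound genes was 986, beside 736 over all 5891 bound genes. Their values spread from 459 at eco to 3579 at wapl.

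**Figure D1:**
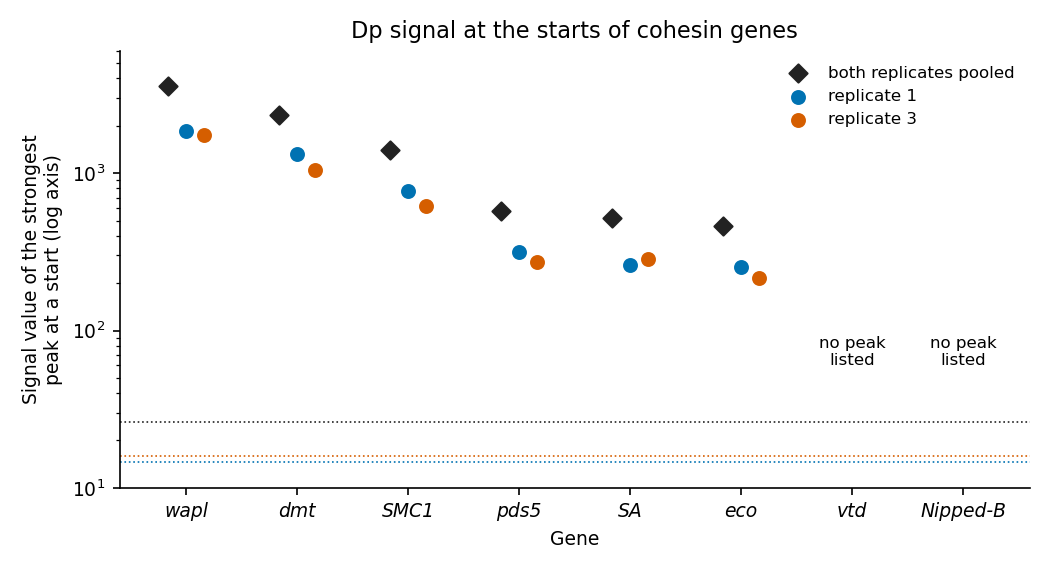
Signal value of the strongest peak within 500 bp of a start (log axis) for each member, in the pooled list (diamonds) and in replicates 1 and 3 (circles). Dotted lines mark the lowest signal listed in each list, 26.2 pooled, 14.5 in replicate 1 and 16.0 in replicate 3; wapl is highest and eco lowest in all 3 lists, and vtd and Nipped-B have no listed peak.

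The ring subunits were split between bound and unlisted. SMC1, an ATPase arm of the ring, had a thresholded signal of 1394 (rank 1605 of 5828) in a peak at chr3R:24057967-24058588. Its summit was intergenic, 23 bp upstream of the single annotated start. Replicate 1 gave 775 and replicate 3 gave 622. Both replicates thus placed it in their top 5828 peaks, at rank 1561 and rank 1715. The E2F core nearest to it lay inside the 5′ untranslated region of SMC1, centred 64 bp downstream of the start and 87 bp from the summit, and a CHR element, through which MuvB complexes bind many mitotic genes, was centred at -69 relative to the start.

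SA, the stromalin subunit, was bound less strongly. Its thresholded signal was 519 (rank 3434), with the summit 26 bp upstream of the start in a peak at chr2L:6950081-6950602. Replicate 1 gave 260 and replicate 3 gave 284. It lay 188 bp from the start of Gas41, which is transcribed away from SA. None of the 4 motifs was found within 100 bp of this summit. A CHR element lay within 100 bp of the start, centred 80 bp downstream of it. A second thresholded summit, with a signal of 223, followed 206 bp further on in a coding exon of SA.

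The kleisin gene vtd, which encodes Rad21, had no listed peak near it. The gene lies at chr3L:27136525-27157999 with a single start. The last peak of the arm in any list had its summit at 24537320, which is 2.60 Mb before vtd. From there to the end of the assembled arm, 3.57 Mb, no list held a peak, and 18 protein-coding genes, vtd included, begin in this stretch. Of the 20 protein-coding genes nearest to vtd, 0 had a thresholded summit at a start and 0 had a pooled one. In replicate 1 the count was 1 and in replicate 3 it was 0. Only 53 protein-coding genes, or 0.38% of all, stood in a peak-free stretch of the pooled list at least as long as that of vtd. The 100 bp to each side of its start held 1 DRE, just inside the gene, and no E2F core.

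The loader gene Nipped-B stood in a similar place on another arm. It runs from 4691672 to 4729017 on arm 2R, on the minus strand. The 100 bp to each side of its start held 1 CHR element and no E2F core. The nearest pooled summit was 100 kb from its start, the nearest thresholded one 134 kb, the nearest in replicate 1 53.9 kb and the nearest in replicate 3 456 kb. Its stretch without pooled peaks was 234 kb long and held 8 protein-coding genes, and 2.40% of protein-coding genes stood in one at least as long. Of its 20 nearest genes, 1 was bound. A summit at a start was listed for 2 of these 20 in the pooled list, 6 in replicate 1 and 0 in replicate 3. For the 6 bound members, between 7 (at dmt) and 16 (at SMC1) of the 20 nearest genes were bound.

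Both vtd and Nipped-B are known to lie in the heterochromatin beside the centromere. Within 4 Mb of the start the pooled list held 0.2 peaks per Mb around vtd and 116 per Mb around Nipped-B, and between 227 and 323 per Mb around the other 6 genes. The average for Nipped-B does not describe its close surroundings, because nearly all of these peaks lay to one side. They began in the bin of 100 kb centred 0.65 Mb from its start, before which no bin held more than 1 peak. In all, 47 of its 80 bins held none. How far reads could be placed in these stretches was not tested, since the files hold no reads, so a gene without Dp cannot be told apart here from a gene whose region gave no calls.

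**Figure D2:**
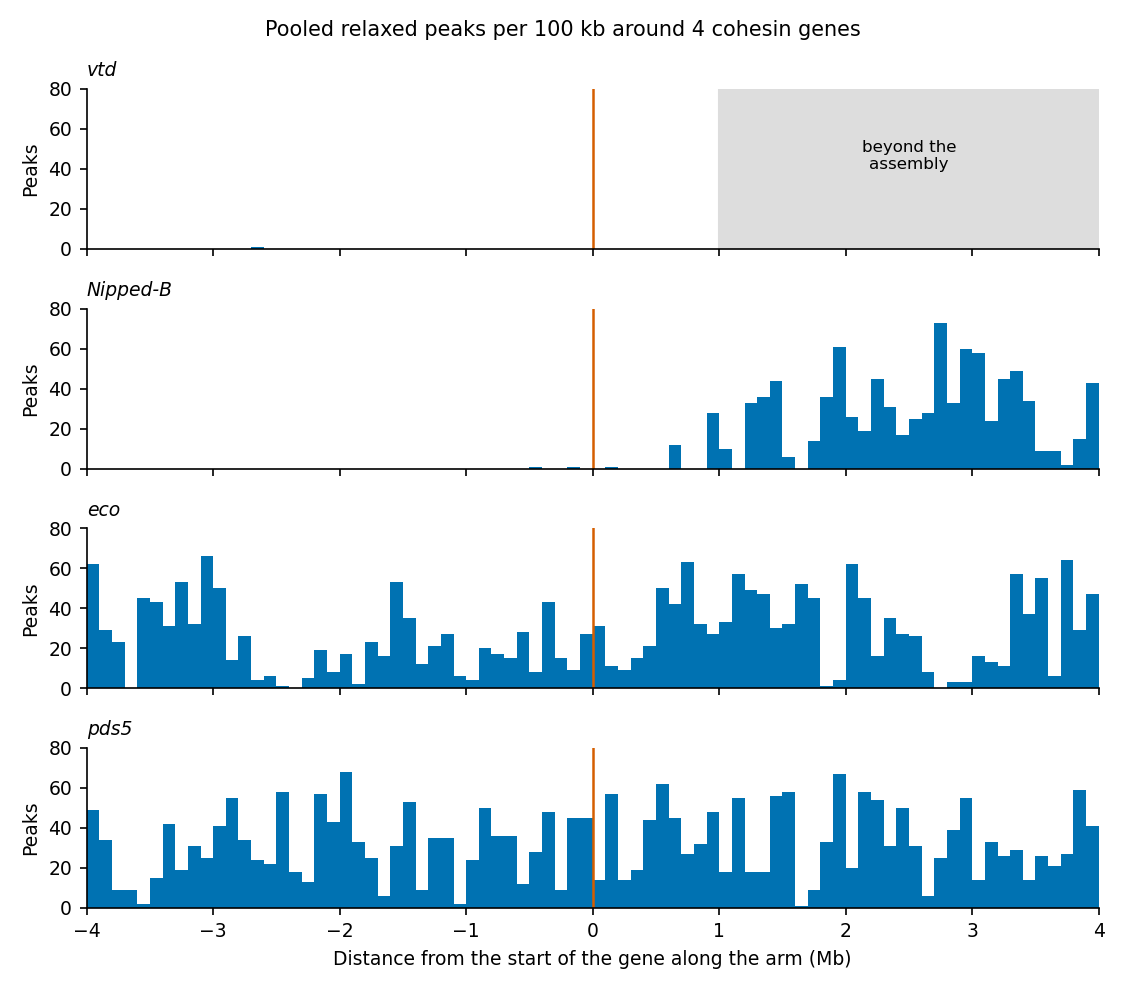
Number of pooled relaxed peaks in bins of 100 kb (bars) within 4 Mb of the start of vtd, Nipped-B, eco and pds5 (orange line), by distance along the arm. Around vtd a single peak is listed, to one side of Nipped-B there are almost none, and eco and pds5, on the same 2 arms, have peaks to both sides, in all but 3 bins for eco and in every bin for pds5.

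Among the regulators, wapl and dmt had the strongest peaks of the whole set. The release factor gene wapl had a signal of 3579 (rank 549), above 90.1% of bound genes and 4.87 times their median. The peak ran over chrX:2158590-2159464, with its intergenic summit 129 bp upstream of the start furthest upstream. Replicate 1 gave 1847 and replicate 3 gave 1754. These were the closest pair of replicate values among the members, 0.08 apart on the log2 scale. No other protein-coding start lay within 500 bp; the nearest was that of Cyp4d1, at 1911 bp.

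The second annotated start of wapl, inside the gene, also had Dp. A peak at chrX:2155806-2156399 held 2 thresholded summits in an intron, 138 bp and 337 bp upstream of that start. Their signals were 983 and 313. In replicate 1 the same places had 543 and 165, and in replicate 3 they had 451 and 188. The upstream promoter was therefore the stronger in both replicates, and wapl was the only member with a separate thresholded peak at each of 2 starts. Only wapl and eco had 2 annotated starts, and the 1 thresholded summit of eco lay within 500 bp of both. By distance to the nearest start, the wapl summit at 337 bp was the furthest that still counted for a member. The nearest outside the limit was 929 bp from the start of SMC1, with a signal of 347.

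wapl also held most of the E2F cores near the set. Within 100 bp of its strongest summit lay 2 of them, 46 bp and 34 bp from the summit, with 1 CHR element and 1 copy of motif 1, an element of ubiquitously active promoters bound by M1BP. The core 34 bp away lay in the 3′ untranslated region of Cyp4d1. A DRE was centred 13 bp upstream of the upstream start of wapl. It lay more than 100 bp from the summit and outside the line printed above. A further core lay 88 bp upstream of the downstream start, 50 bp from its summit. Cores were sought within 100 bp of every strongest summit and every start of the 8 genes. That gave 6 sites, 4 of them at wapl, and 5 of the 6 read TTCGCGC. With 2 starts, and its strongest summit 129 bp from a start, wapl had more sequence searched than members with a single start. The share of this variant over all starts is not given here. The 6 sites are printed here with 10 bases to each side, the core in capitals, to show the shared letters. On the strand opposite to the gene lay 4 of them, 3 at wapl and that at eco.
wapl, chrX:2159053-2159079, plus strand: gcgaacagcaTTCGCGCtatcgacatt
wapl, chrX:2159133-2159159, plus strand: agcaaagactTTGCCGCcaatcgttca
wapl, chrX:2155977-2156003, plus strand: ttaacactgcTTCGCGCgctgcgctgc
wapl, chrX:2158899-2158925, minus strand: attaaactttTTCGCGCatttcgccat
SMC1, chr3R:24058338-24058364, plus strand: aaaaaattatTTCGCGCtcatattgtt
eco, chr3L:7338934-7338960, plus strand: ttgtgactccTTCGCGCttttttgtag

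dmt, called dalmatian, encodes a protector that does the work of sororin and of a shugoshin in flies. Its signal was 2358 (rank 1006), 3.21 times the median of bound genes, at chr3R:9710735-9711480. Replicate 1 gave 1321 and replicate 3 gave 1050. The summit fell between divergent genes, 52 bp upstream of dmt and 53 bp from the start of trbd on the other strand. With distances that nearly equal, the peak cannot be given to either gene alone. None of the 4 motifs was present within 100 bp, although this was the second strongest peak of the set.

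pds5, whose protein binds the ring and takes part in both its release and its protection, had a signal of 577 (rank 3167) at chr2R:12027445-12028146. Replicate 1 gave 316 and replicate 3 gave 272. The intergenic summit was 158 bp upstream of pds5 but 120 bp from the start of Mppe on the other strand. A weaker pooled summit, at 162, lay 43 bp downstream of the pds5 start and did not reach the thresholded list, whose lowest value was 213. None of the 4 motifs was found within 100 bp of the strongest summit.

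eco, the acetyltransferase that makes cohesion stable during replication, had the lowest signal of the bound members, 459 (rank 3739), at chr3L:7339219-7339661. The summit was 85 bp upstream of eco, and it lay in the 5′ untranslated region of lark, 39 bp from a start of that gene. Replicate 1 had 1 summit there, with 253. Replicate 3 had a pair, with 215 on the side of eco and 83.8 on the side of lark. Replicate 3 therefore placed its strongest summit in a different spot, 23 bp inside eco. The only E2F core near eco lay beside its downstream start, 478 bp from the thresholded summit.

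The order of the 6 genes was nearly the same in the replicates. Replicate spread was measured on the 5634 thresholded peaks that had a summit of each replicate within 100 bp. There the log2 ratio of replicate 3 to replicate 1 had an SD of 0.44 and a median of -0.18. Of the 15 pairs of bound members, 12 differed by more than this SD in the thresholded list and 14 stood in the same order in both replicates. wapl, dmt and SMC1 each differed from every other member by more than the SD. pds5, SA and eco did not differ from each other beyond it, and pds5 and SA changed places between replicates. These orders take the strongest summit of each list. The spread takes the replicate summit nearest to the thresholded one, by which replicate 3 gave 83.8 at eco, a log2 ratio of -1.60 to replicate 1, and eco was lowest either way.

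The strongest summit of 4 of the 6 bound members, SA, dmt, pds5 and eco, had the start of another protein-coding gene within 500 bp, a share near the 58.5% of all bound genes for which this held. For pds5 and eco that start was the nearer in the thresholded list, as it was for 28.6% of all bound genes. The replicates did not all place the strongest summit on the same side. In replicate 1 that of pds5 was nearest to pds5 itself, at 123 bp, and that of dmt was nearer to trbd, at 42 bp. In replicate 3 that of eco was nearest to eco. With each summit given only to the gene with the nearest start, 4 of the 8 remained bound, or 50%, against 32.9% of all protein-coding genes, and the 2 lost were pds5 and eco. Among the 2914 strongest peaks, wapl, dmt and SMC1 remained, which is 37.5% of the set against 23.9% of all genes.

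The thresholded summits in and around the members all lay at starts of protein-coding genes, where 87.6% of the whole list lay, so 20 of 20 is near that share. From 5 kb upstream to 5 kb downstream of the 8 genes the thresholded list had 20 summits, of which 9 were at a start of a member. The remaining 11 all lay within 109 bp of the start of a neighbouring protein-coding gene. They belonged to CG6000 and Hsp68 beside SMC1, ihog and CG3430 beside SA, Pgd and bcn92 beside wapl, otk2, CG8321 and 128up beside pds5, and wrm1 beside eco. Some were stronger than the peak of the member itself. CG6000 had 3051, 3949 bp from the SMC1 start, CG3430 had 2138 and CG8321 had 2396. Hsp68, a heat shock gene, had 347.

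In the pooled relaxed list 26 of the 55 summits in these windows were more than 500 bp from any protein-coding start, 11 of them inside a member. Their signals ran from 26.5 to 73.6, all below the lowest thresholded value. The list itself began at 26.2 and had a median of 50.2. Of these summits, 66.9 in an intron of wapl and 73.6 in an intron of Pgd lay above that median, and the one in wapl had 73.0 (rank 7282) in replicate 1. Secondary summits also stood 199 to 215 bp from a main summit at a start in 5 of the 6 bound members. Over all bound genes, 57.9% had a second pooled summit within 500 bp of another at their starts. Examples are 114 in the first part of SMC1 and 151 in dmt, both in coding exons. Neighbouring genes also had paired summits, as at CG8321 with 2396 and 265. The spacing itself is not given over all genes, so it is not a trait of the members.

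**Figure D3:**
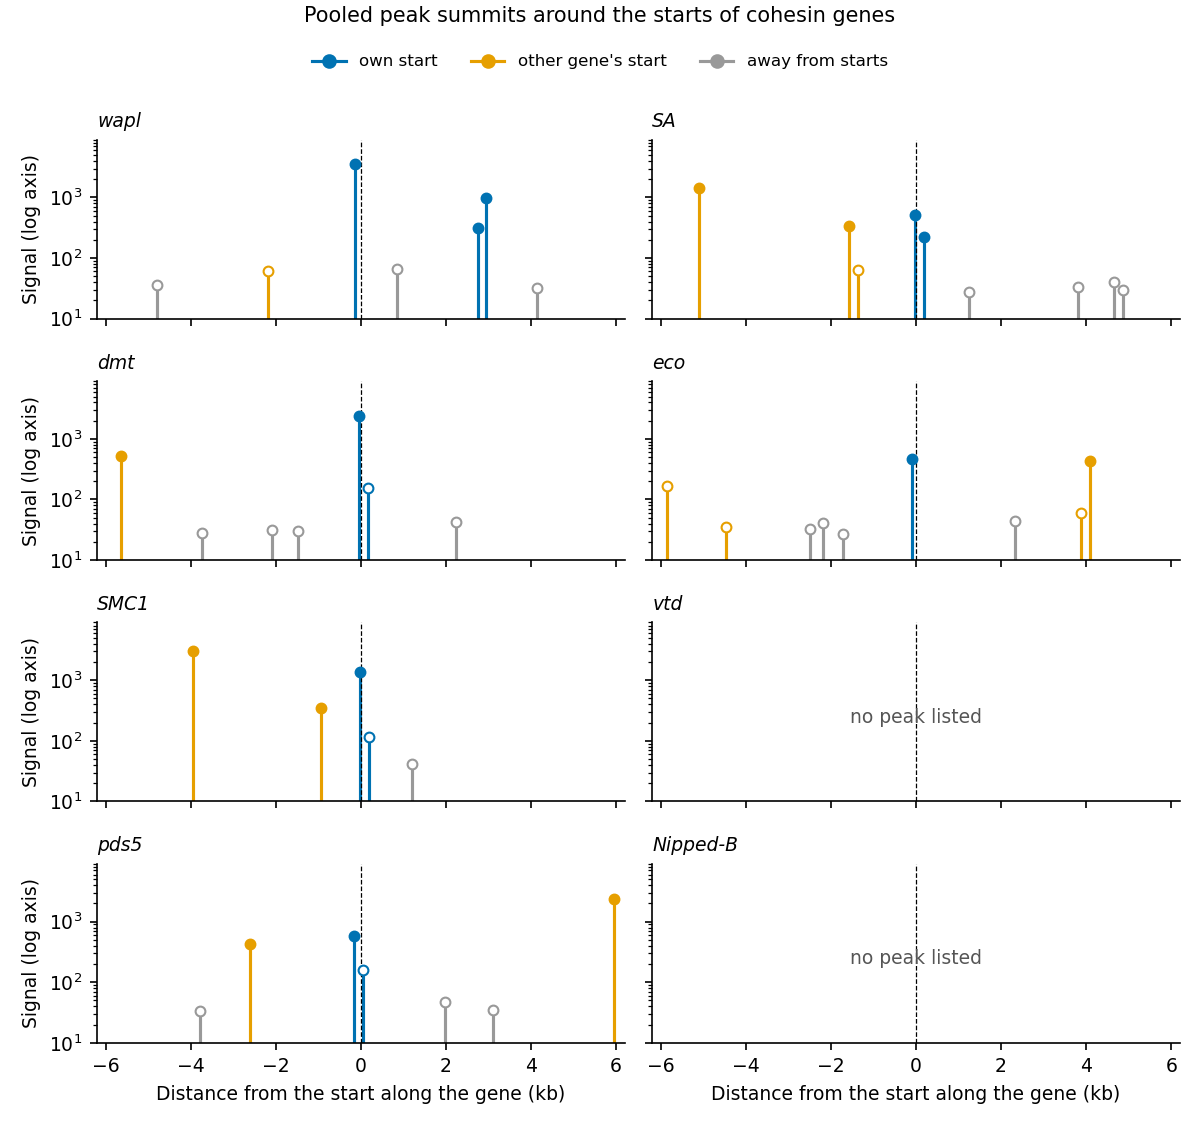
Pooled relaxed summits within 6 kb of the start of each member (dashed line; for wapl and eco the start furthest upstream), by distance along the gene in kb and signal value (log axis). Filled points are also in the thresholded list, and every filled point stands at a start of the member (blue) or of another gene (orange), while peaks away from starts (grey) stay low.

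The E2F core was present within 100 bp of the strongest summit in 2 of the 6 bound members, SMC1 and wapl. Windows of the same length held it at 11.3% of the 19252 annotated starts of protein-coding genes and at 18.2% of the 5107 thresholded summits at starts. The corresponding shares were 32.0% and 48.8% for the CHR, 6.45% and 15.7% for the DRE, and 3.25% and 7.87% for motif 1. SA, dmt, pds5 and eco had none of the 4 within 100 bp of their strongest summit. A match describes letters in the window and not a site in use. With 50 bp to each side, SMC1 no longer counted and wapl alone remained.

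The wider cohesion pathway was bound to a similar extent as the members, in 11 of 14 further genes (78.6%), beside 42.2% of all protein-coding genes. With each summit given to its nearest start only, 10 of the 14 remained, or 71.4%, against 32.9%. SMC3, the ring partner of SMC1, was bound at 532 (rank 3370), 102 bp from its start, well below SMC1. Replicate 1 gave 254 and replicate 3 gave 282 there. Mau2, the partner of Nipped-B in the loader, was bound at 461, with replicate values of 268 and 192. Of the loader pair, Mau2 was therefore bound while Nipped-B had no listed peak.

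The highest values of this list were those of thr and Sse, which act in cutting cohesin at anaphase. The separase gene Sse had 4007 (rank 445) at chr3L:5661779-5662823, with replicate values of 2161 and 1880. thr, its regulatory partner in flies, had 4552 (rank 310) at chr2R:17865556-17866415, with 2383 and 2182. pim, the securin that inhibits separase, had 1636, with 881 and 770. All 3 summits lay within 13 bp of the start, and Sse and thr exceeded every one of the 8 cohesin genes and regulators. mei-S332, the fly shugoshin, had 1751, with replicate values of 903 and 864.

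Genes of replication-linked cohesion were also bound, cutlet, a clamp loader subunit, at 2587 and Elg1, which unloads the clamp, at 1832. Among genes used in meiosis, sunn had 972, solo 285 and c(2)M 274. The solo start is also that of vas, and the c(2)M summit was 15 bp from the start of GMF and 295 bp from its own. SA-2, a stromalin paralog, and ord had no summit at a start in the thresholded or pooled list, and the acetyltransferase gene san had pooled summits only, up to 154 (rank 6881). The nearest pooled summit was 13.5 kb from SA-2 and 42.3 kb from ord. These distances were shorter than those of vtd and Nipped-B. Without replicate 1, that is among the 5828 strongest peaks of replicate 3, c(2)M and solo had no summit at a start. The list then had 9 of 14.

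Condensin, the related complex that compacts mitotic chromosomes, was bound in all 7 of its genes, beside 42.2% of all protein-coding genes. SMC2 had 2879 and its partner glu, which is SMC4, 2295. Cap-D3 had 1456, Cap-D2 804, barr 754, Cap-G 645 and Cap-H2 281. The Cap-H2 summit was nearer to MED7, at 84 bp. With each summit given to its nearest start only, 6 of the 7 remained, or 85.7%, against 32.9% of all protein-coding genes. The median of 804 lay below that of the bound cohesin genes, 986, and that of the other bound cohesion genes, 1636. With 6, 7 and 11 bound genes these medians were not tested against each other.

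**Figure D4:**
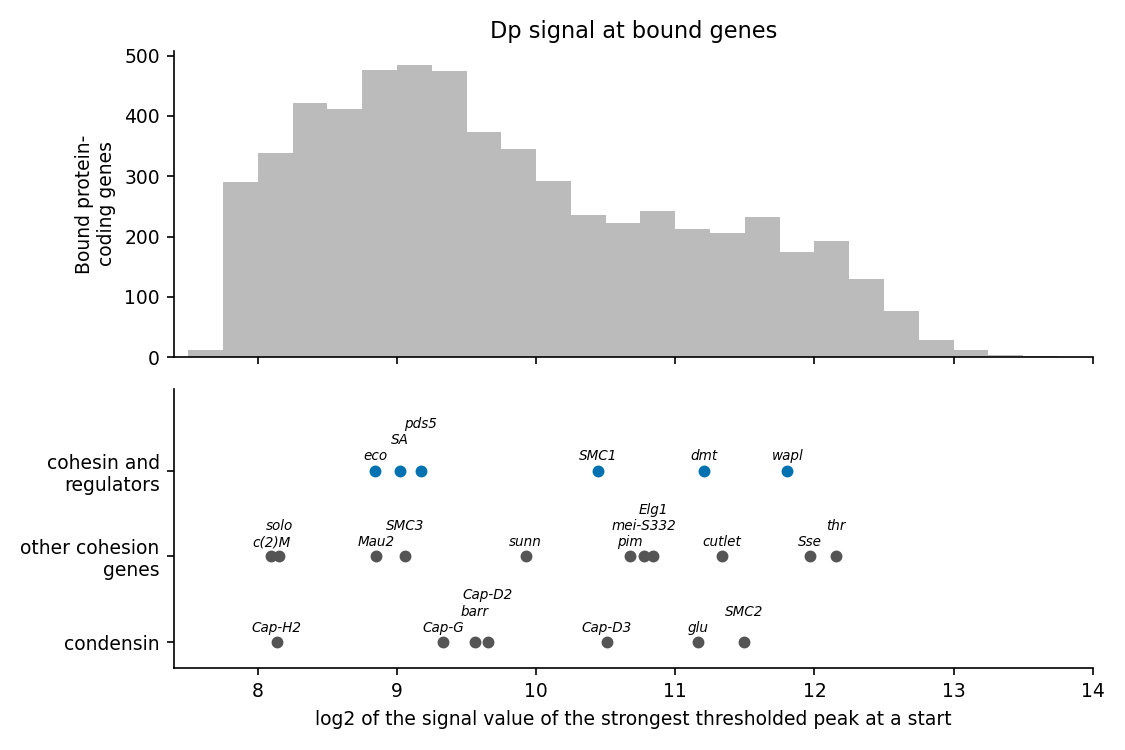
Upper panel, number of bound protein-coding genes by log2 of the signal of their strongest thresholded peak at a start, in bins of 0.25. Lower panel, the same value for each bound gene of the cohesin set, of the other cohesion genes and of condensin. The signals run from 459 to 3579 in the cohesin set, 274 to 4552 in the other cohesion genes and 281 to 2879 in condensin. Furthest to the right stand thr, Sse and wapl.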

How the data were processed

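Peaks came from ChIP-seq of Dp-GFP embryos, 2 replicates, with chromatin sheared to between 200 and 800 bp per the labels. Per the file descriptions deposited with the samples, each list was derived from dm6 alignments and 1 further file common to all lists, whose role is not stated but which also went into the control-normalized signal. Filtering the pooled and replicate lists by irreproducible discovery rate gave the thresholded list. The software for alignment and peak calling was not given in the sources used here. For each peak, signal value and the −log10 q were deposited by the authors. All 5828 thresholded peaks share a −log10 q of 4.30, so q was not used to rank. The deposited summit offset gave the positions. Read depth is unknown, so no interval of counting error is given.

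Genes came from Ensembl release 115 and sequence from the RefSeq copy of the same assembly. A summit counted for every protein-coding gene with a start within 500 bp, and the strongest such peak gave the value of a gene. The order of members in a replicate uses the strongest summit listed there within 500 bp of a start. The log2 ratio between replicates at a peak uses the listed summit nearest to the thresholded one. Distances refer to protein-coding starts only. The assignment was tested on simulated data with known positions. Computation used Python 3.11.15, numpy 2.4.6, pandas 2.3.3 and matplotlib 3.10.9.

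The members, lists, motifs and settings were chosen with earlier results of these data known. Named genes are all 8 members, all genes of the further lists, the gene with the start nearest a member's summit and the 3 genes most like the strongest member in replicate signals; neighbours at other summits were named after their values were seen. Nothing in the labels says how separate the biological replicates were, so the spread between them may be technical in part. Alternatives changed the distance, the assignment, the threshold, the replicate used and the motif window.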

Additional observations from a re-analysis of the deposited data

How the results depend on the processing

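The 6 bound members were the same genes with summits within 250 bp or 1000 bp of a start, with all pooled relaxed peaks, without replicate 1 and without replicate 3. The share of all protein-coding genes moved between these settings. It was 37.7% at 250 bp, 45.3% at 1000 bp, 60.3% with pooled relaxed peaks, 40.4% without replicate 1 and 42.4% without replicate 3. With each summit given to its nearest start only, 4 were bound, and pds5 and eco have no value there. With the 2914 strongest peaks, 3 members (37.5%), 7 of the other 14 cohesion genes (50%) and 3326 of all protein-coding genes (23.9%) were bound. Leaving out a replicate took the 5828 strongest peaks of the other replicate in place of the thresholded list. That gave 9 to 11 of the other cohesion genes and 5633 to 5910 of all genes. Condensin kept 6 or 7 genes in every setting. With 50 bp to each side, 1 member in place of 2 had an E2F core. The signal of each bound member was the same at 250 bp and 1000 bp. No paired analysis was possible because the series has a single group and no test. Peaks below the lowest listed signal are not in the lists, so weaker binding at vtd and Nipped-B was not detectable.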

Other observations

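The genes whose replicate signals at a start were most like those of wapl, by distance on the log2 scale over the 2 replicates, were Plekhm1 (0.0158), ppl (0.0262) and Dlish (0.0315). Their thresholded signals were 3578, 3577 and 3630, and likeness over 2 values says nothing of shared control.

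The 5-letter core of the DRE, CGATA, was counted on both strands after the sequences had been seen. The 100 bp to each side of the SMC1 summit held 4 copies, and those of wapl and dmt 2 each. The windows of SA, pds5 and eco held 0. Windows around the vtd start and around the upstream wapl start held 2 and 5 copies. A full DRE reads the same on both strands and so counts as 2 copies. Each of these windows held 1 DRE, and the copies at vtd were that 1 site. At least 1 copy was found at 37.1% of the starts of protein-coding genes and at 53.6% of thresholded summits at starts.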
